A study of Mus musculus with 6 samples.

Results

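Polycomb proteins silence genes by modifying histones. Polycomb repressive complex 2 (PRC2) methylates histone H3 at lysine 27 (H3K27) through EZH1 or EZH2, and polycomb repressive complex 1 (PRC1) recognises that mark through a CBX protein and attaches ubiquitin to histone H2A through RING1 or RNF2. The demethylases KDM6A and KDM6B remove H3K27 methylation. In B-cells EZH2 is known for its high level in dividing and germinal centre cells, whereas EZH1 is the form of resting cells.

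The 10 genes described here encode core parts of these complexes and the demethylases, and were chosen by name among the 46963 genes of the deposited count table. Ezh1, Ezh2, Eed and Suz12 belong to PRC2. Bmi1, Ring1, Rnf2 and Cbx7 belong to PRC1. Kdm6a and Kdm6b are the demethylases. All 10 were found in the table, and all 10 were among the 14600 genes that passed the filter on low counts (at least 10 counts in at least 2 libraries).

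RNA was sequenced from CD43- splenic B-cells of mice of 3 genotypes, which shared 1 strain background per the methods. The wt mice carried an intact immunoglobulin heavy chain (IgH) locus, the Eμ-deficient mice lacked the Eμ enhancer upstream of the constant genes together with its matrix attachment regions, and the 3′RR-deficient mice lacked the 3′ regulatory region downstream of them. Each genotype gave 1 resting library (no stimulation) and 1 library of cells cultured with LPS at 5 µg/ml, a Toll-like receptor 4 ligand that drives B-cells to divide and to form plasmablasts, for 2 days. The labels also give the resting cells 2 days of culture, whereas the methods describe cells taken without culture, so culture and LPS cannot be told apart with certainty. The deletions were carried by every cell of the mice and not by B-cells alone, the methods name male and female animals of 8 to 12 weeks, and each library was a pool of mice, so the 6 libraries hold no replicate within a genotype and state. P-values for LPS therefore measure how evenly a gene changed across genotypes, and those between genotypes how evenly it differed across states. Neither measures the spread between mice, and no test was made within a state.

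The libraries held between 9111974 (3′RR-deficient, LPS) and 21998587 counts (wt, LPS). The B-cell markers Cd79a, Cd79b, Ms4a1, Pax5 and Cd22 were measured in every library, with a summed level of 1392 to 2401 CPM (counts relative to the size of each library, scaled by the trimmed mean of M-values). The resting Eμ-deficient library stood apart in other cell types: its 7 erythroid markers summed to 20140 CPM against 3354 and 3864 CPM in the other resting libraries, and its 7 myeloid markers to 365 against 151 and 152 CPM. The LPS libraries of 3′RR-deficient and wt B-cells also stood apart. In the comparison of these libraries, the log2 ratios of 35 added control RNAs had an SD of 1.27, against 0.16 for the same genotypes at rest. How the control RNAs were mixed into each sample is not stated in the methods. Between LPS and resting cells that SD was 0.78 in wt, 0.63 in 3′RR-deficient and 0.13 in Eμ-deficient B-cells. Across genes the log2 ratio of 3′RR-deficient over wt after LPS rose with GC content (Spearman rho 0.56 over genes, a description). That of LPS over resting in wt fell with it (rho -0.26). The ratio after removal of this GC trend is given beside many of the results, though not all.

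The promoters of Ezh2 and Suz12 are shown because these PRC2 genes were the pair with the largest rises among the 10 genes, and because they alone, of the 9 with a promoter listed in RefSeq (GRCm38.p6), held either of the letters TTTCCCGC or TTTGGCGC of the binding motif of E2F factors, which drive genes of DNA replication. Both strands were searched over 250 bases before and 50 bases after the start site that RefSeq lists, which for Ezh2 lies within the gene as GENCODE bounds it, so that the motif position holds for that start only. Of all 32851 listed promoters, 514 (1.56%) held either run. This share was not matched for GC content, and enrichment of the motif among the 10 genes was not tested. Capitals mark the motif in each line, read 5′ to 3′ on the strand of the gene. In Ezh2, whose window is chr6:47594981-47595280 on the minus strand, the motif began 3 bases after the start site. In Suz12, whose window is chr11:79992856-79993155 on the plus strand, it began at position -219 relative to it. A match describes the letters of the window and not a bound site.
Ezh2: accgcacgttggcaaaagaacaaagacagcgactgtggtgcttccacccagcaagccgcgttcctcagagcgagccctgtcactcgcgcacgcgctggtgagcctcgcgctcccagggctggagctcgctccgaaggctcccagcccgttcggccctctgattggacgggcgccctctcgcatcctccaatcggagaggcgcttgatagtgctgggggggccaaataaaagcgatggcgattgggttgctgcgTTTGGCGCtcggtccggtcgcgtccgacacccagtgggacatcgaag
Suz12: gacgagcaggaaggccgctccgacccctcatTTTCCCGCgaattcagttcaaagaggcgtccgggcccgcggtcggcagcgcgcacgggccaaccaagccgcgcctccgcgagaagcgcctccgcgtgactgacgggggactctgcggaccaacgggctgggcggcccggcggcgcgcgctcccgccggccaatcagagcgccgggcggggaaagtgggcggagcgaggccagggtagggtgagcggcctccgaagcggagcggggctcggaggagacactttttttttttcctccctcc

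The comparison of LPS-stimulated with resting B-cells asked how the 10 genes moved as the cells were activated. The catalytic subunits of PRC2 moved in opposite directions, Ezh2 rising 8.66-fold and Ezh1 falling 1.91-fold. The subunits Suz12 and Eed rose with Ezh2. Cbx7 of PRC1 fell 2.57-fold, and the demethylase gene Kdm6b fell 12.5-fold. In all, 3 genes rose and 3 fell at an adjusted p under 0.05 in edgeR's quasi-likelihood test (p-values adjusted by Benjamini-Hochberg across the 14600 genes), against a background of 19.7% of all genes called higher and 21.1% called lower. The median log2 change of the 10 genes was 0.12, and that of all genes was -0.07. By non-overlap of the 3 LPS with the 3 resting libraries, 3 of the 10 lay wholly above (25.0% of all genes) and 3 wholly below (27.3%), so the shares of the 10 genes lay near the background.

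**Figure D1:**
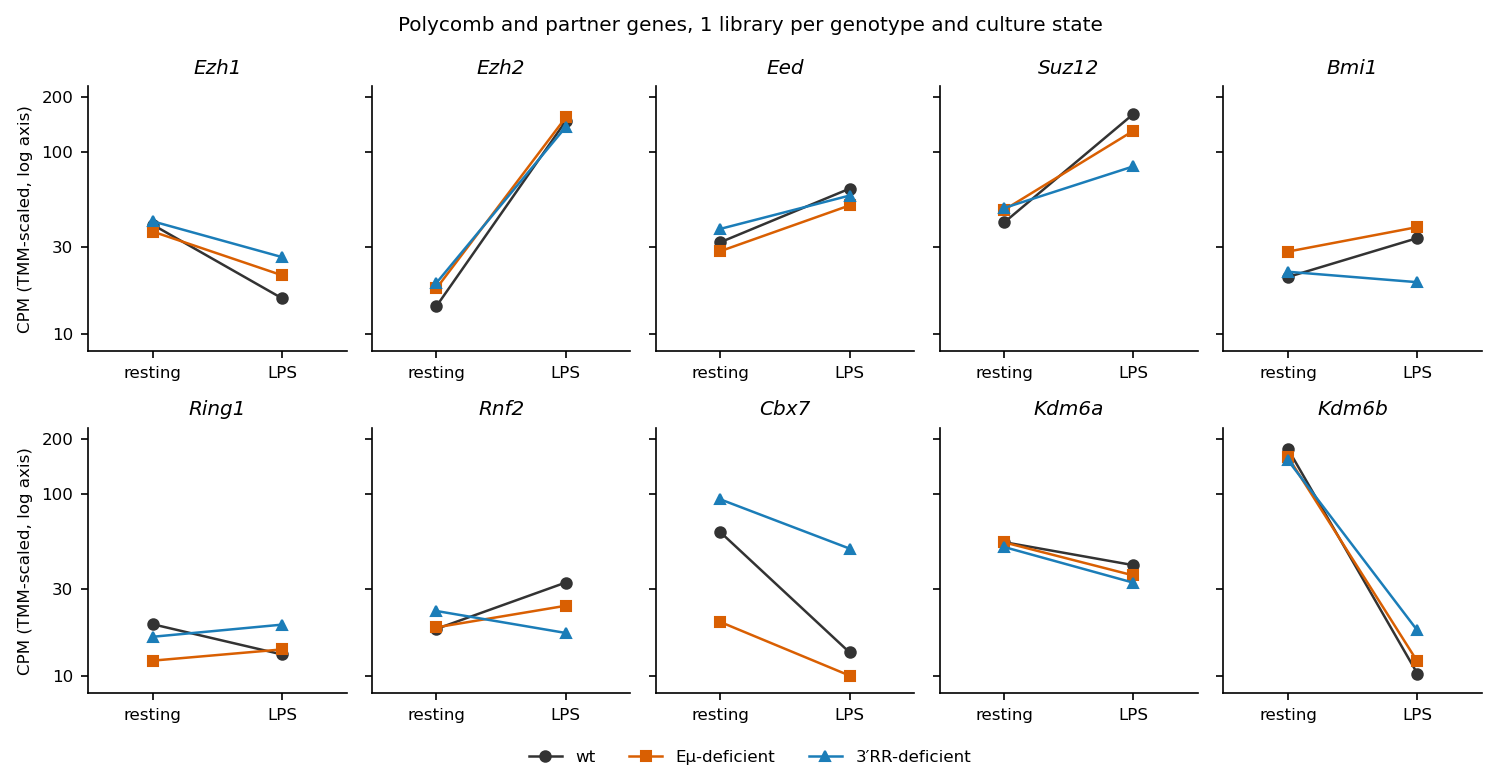
Level of each of the 10 genes (CPM, log axis) in resting and LPS libraries, with 1 point per library and lines joining the libraries of a genotype. Ezh2 lay between 14.2 and 19.1 CPM at rest and between 137 and 155 CPM after LPS, Kdm6b moved the opposite way, and the genotypes stood apart for Cbx7.

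Ezh2, the main H3K27 methyltransferase of dividing cells (chr6:47530139-47595341 in mm10), was at 14.2 CPM in wt, 17.8 CPM in Eμ-deficient and 19.1 CPM in 3′RR-deficient resting B-cells. After LPS the same genotypes gave 148, 155 and 137 CPM. Every LPS library was far above every resting library, and the genotypes lay close together within each state. The mean rose from 17.0 ± 2.52 to 146 ± 8.86 CPM (SD, n = 3 genotypes), a log2 change of 3.11 ± 0.25 (SE, edgeR adjusted p = 8.12e-05). Within genotypes the log2 ratio of LPS over resting was 3.38 in wt (95% interval of counting error 3.19 to 3.57), 3.12 in Eμ-deficient (2.92 to 3.32) and 2.85 in 3′RR-deficient B-cells (2.68 to 3.01). The wt and 3′RR-deficient intervals did not overlap. With the GC trend removed the ratios were 3.14 in wt and 3.02 in 3′RR-deficient B-cells. Counted per kilobase of exon, Ezh2 was the lowest of the 10 genes at rest (2.55 CPM per kb) and the second highest after LPS (21.9 CPM per kb).

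Ezh1 (chr11:101191115-101226463), the second methyltransferase, was at 39.8, 36.5 and 41.5 CPM in wt, Eμ-deficient and 3′RR-deficient resting B-cells. The LPS libraries gave 15.7, 20.98 and 26.4 CPM in the same order. Again the states did not overlap, but here the lower level was that of the LPS cells. The mean fell from 39.2 ± 2.56 to 21.02 ± 5.36 CPM (SD, n = 3), a log2 change of -0.93 ± 0.24 (SE, edgeR adjusted p = 0.0133). The fall was -1.34 on the log2 scale in wt (-1.54 to -1.15), -0.80 in Eμ-deficient (-1.03 to -0.57) and -0.65 in 3′RR-deficient B-cells (-0.87 to -0.44). With the GC trend removed these were -1.12, -0.84 and -0.73. Without the Eμ-deficient libraries the call was lost (adjusted p = 0.1), with a log2 change of -0.91.

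Set against each other per exon length (7440 bases for Ezh1 and 6678 for Ezh2), the methyltransferases exchanged rank. At rest Ezh1 exceeded Ezh2 in every genotype, by 2.52-fold in wt, 1.84-fold in Eμ-deficient and 1.96-fold in 3′RR-deficient B-cells. After LPS Ezh2 exceeded Ezh1 in every genotype, by 10.5-fold, 8.21-fold and 5.78-fold in the same order. Ezh1 thus made up 71.6%, 64.8% and 66.2% of the summed level per length at rest, and 8.71%, 10.9% and 14.7% after LPS. The log2 of Ezh1 over Ezh2 went from 1.06 ± 0.24 to -2.99 ± 0.43 (SD, n = 3 genotypes), a shift of -4.05 ± 0.62, or 16.5-fold. An exact two-sided permutation test over the libraries gave p = 0.1, the smallest p that 3 against 3 libraries allow. It treated the libraries as independent and did not use the pairing of states within a genotype.

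**Figure D2:**
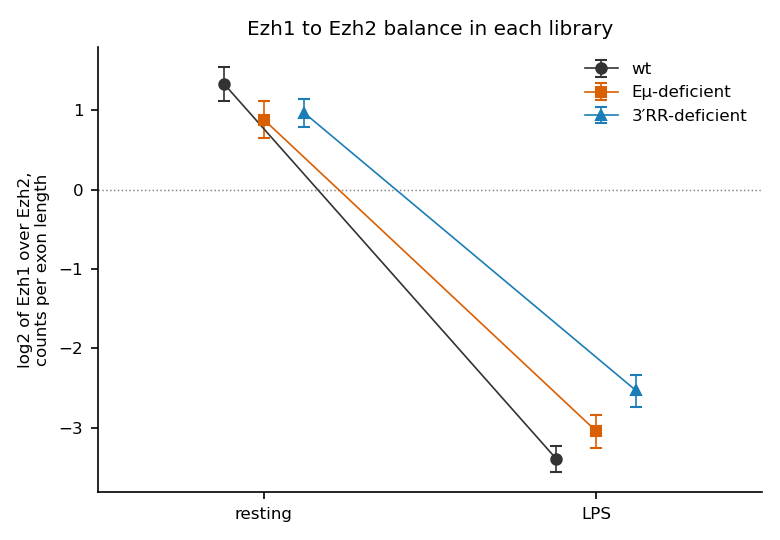
Log2 of the Ezh1 over the Ezh2 count per exon length in each library, with 95% intervals of counting error and lines joining the libraries of a genotype. Values above 0 mean more Ezh1: the resting libraries lay between 0.88 and 1.33 and the LPS libraries between -3.39 and -2.53.

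The size of the exchange differed between genotypes. It was -4.72 in wt, -3.92 in Eμ-deficient and -3.50 in 3′RR-deficient B-cells on the log2 scale. At rest the wt value (1.33, interval 1.12 to 1.54) was the highest, while its interval overlapped that of the 3′RR-deficient library (0.97, 0.79 to 1.14). After LPS the wt value (-3.39, -3.56 to -3.23) was the lowest, and that of the 3′RR-deficient library (-2.53, -2.74 to -2.33) the highest, with intervals that did not overlap. With the GC trend removed the values were 1.17, 1.04 and 0.91 at rest and -3.09, -2.91 and -2.85 after LPS in wt, Eμ-deficient and 3′RR-deficient B-cells, so that the genotypes lay closer together. With 1 library each, these orders carry no test across mice.

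Suz12 (chr11:79993106-80034123), which holds PRC2 together, was at 40.9, 48.0 and 49.1 CPM in wt, Eμ-deficient and 3′RR-deficient resting B-cells. After LPS it was at 162, 131 and 83.2 CPM. All LPS libraries lay above all resting libraries, and the LPS libraries were spread far more widely than the resting ones. The mean went from 46.0 ± 4.45 to 125 ± 39.5 CPM (SD, n = 3), a log2 change of 1.4 ± 0.28 (SE, edgeR adjusted p = 0.00454). The log2 ratio was 1.98 in wt (1.87 to 2.10), 1.44 in Eμ-deficient (1.31 to 1.58) and 0.76 in 3′RR-deficient B-cells (0.62 to 0.90). Suz12 transcripts have a low GC content (41.6%), and with the GC trend removed the wt and 3′RR-deficient ratios came closer, at 1.56 and 1.06. The part of library composition in the smaller 3′RR-deficient rise was not tested.

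Eed (chr7:89954654-89980983), the subunit that reads methylated H3K27, was at 31.9, 28.4 and 37.7 CPM in wt, Eμ-deficient and 3′RR-deficient B-cells at rest. It reached 62.8, 50.8 and 57.5 CPM after LPS, again without overlap. The log2 change was 0.81 ± 0.22 (SE, edgeR adjusted p = 0.0171), with 0.98 in wt, 0.84 in Eμ-deficient and 0.61 in 3′RR-deficient B-cells. The rise of Eed was the smallest of the 3 PRC2 rises, and its call was lost without the Eμ-deficient libraries (log2 0.89, adjusted p = 0.113) and with scaling to the total of the added control RNAs (log2 0.60, adjusted p = 0.321).

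Among the PRC1 genes, Bmi1, Ring1 and Rnf2 did not pass the test, and the LPS and resting libraries overlapped for each. Bmi1 (chr2:18677018-18686629), a PCGF protein that activates the ubiquitin ligase, was at 20.5, 28.3 and 21.9 CPM at rest and at 33.6, 38.6 and 19.2 CPM after LPS in wt, Eμ-deficient and 3′RR-deficient B-cells. The 3′RR-deficient LPS library was the lowest of the 6. The log2 change was 0.33 ± 0.25 (SE, edgeR adjusted p = 0.322). By genotype it was 0.71 in wt (0.53 to 0.89), 0.45 in Eμ-deficient (0.24 to 0.65) and -0.19 in 3′RR-deficient B-cells (-0.45 to 0.07). With the GC trend removed these became 0.25, 0.51 and 0.21, so that all were above 0.

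The catalytic pair of PRC1, Ring1 (chr17:34020792-34024680) and Rnf2 (chr1:151458004-151500955), gave opposite orders of genotype after LPS. Ring1 was at 19.2, 12.1 and 16.4 CPM in wt, Eμ-deficient and 3′RR-deficient resting B-cells, and at 13.1, 14.0 and 19.1 CPM after LPS. Rnf2 was at 18.1, 18.5 and 22.7 CPM at rest, and at 32.6, 24.3 and 17.2 CPM after LPS. In the LPS libraries Ring1 was thus highest and Rnf2 lowest in 3′RR-deficient B-cells, while wt was at the other end for both. The log2 change was -0.05 ± 0.26 for Ring1 (SE, edgeR adjusted p = 0.899), a direction that reversed with the GC trend removed (0.10) and without the wt libraries (0.24). For Rnf2 it was 0.29 ± 0.28 (adjusted p = 0.437). Per exon length Ring1 made up 57.4% of the pair in wt at rest and 33.9% after LPS, against 47.9% and 58.6% in 3′RR-deficient B-cells. The genes differ in GC content (56.9% for Ring1 and 39.5% for Rnf2), and the opposite ratios of 3′RR-deficient over wt after LPS, 0.54 for Ring1 and -0.92 for Rnf2, became -0.08 and -0.11 with the GC trend removed.

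Cbx7 (chr15:79915807-79971119), a CBX protein that brings PRC1 to methylated H3K27, was the member with the widest spread between genotypes. At rest it was at 61.6 CPM in wt, 19.8 CPM in Eμ-deficient and 93.2 CPM in 3′RR-deficient B-cells. After LPS it was at 13.4, 10.02 and 49.99 CPM in the same order. The 3′RR-deficient cells were highest and the Eμ-deficient cells lowest in both states, and because of this spread the resting and LPS libraries overlapped even though each genotype was lower after LPS. The log2 change with LPS was -1.36 ± 0.30 (SE, edgeR adjusted p = 0.00697), made up of -2.20 in wt (-2.39 to -2.01), -0.98 in Eμ-deficient (-1.32 to -0.65) and -0.90 in 3′RR-deficient B-cells (-1.05 to -0.75). With the GC trend removed these were -1.65, -1.02 and -1.03, and wt still had the largest fall. Without the genotype terms in the model the call was lost (log2 -1.26, adjusted p = 0.202).

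The H3K27 demethylase genes both lay lower in every LPS library than in any resting library. Kdm6b (chr11:69398508-69413675), the demethylase known as inducible in myeloid cells, was the highest of the 10 per exon length at rest (23.4 CPM per kb) and the lowest after LPS (1.92 CPM per kb). Its resting libraries gave 176, 159 and 153 CPM in wt, Eμ-deficient and 3′RR-deficient B-cells, and its LPS libraries 10.3, 11.99 and 17.8 CPM. The genotypes were thus ordered in opposite ways in the 2 states, although with the GC trend removed the log2 ratio of 3′RR-deficient over wt was -0.13 at rest and 0.07 after LPS, and that of Eμ-deficient over wt 0.33 at rest and -0.02 after LPS, so that the Eμ-deficient library was then the highest at rest. The log2 change was -3.65 ± 0.29 (SE, edgeR adjusted p = 7.91e-05), and the fold lower after LPS was 17.1 in wt, 13.3 in Eμ-deficient and 8.59 in 3′RR-deficient B-cells. Kdm6b transcripts have the highest GC content of the 10 genes (59.6%), and with the GC trend removed the log2 ratios were -3.39, -3.73 and -3.19 in the same order, so that wt no longer had the largest fall. Kdm6a (chrX:18162575-18279936), the X-linked demethylase that works within a histone H3K4 methyltransferase complex, was at 54.2, 54.1 and 51.0 CPM at rest and at 40.5, 35.6 and 32.5 CPM after LPS. Its log2 change of -0.56 ± 0.21 missed the threshold (SE, edgeR adjusted p = 0.0647), and passed it under 4 of the 10 alternatives tried. By genotype the change was -0.42 in wt, -0.60 in Eμ-deficient and -0.65 in 3′RR-deficient B-cells. With the GC trend removed the order was reversed, at -0.79, -0.61 and -0.40. The Y-linked relative Uty was counted in all 6 libraries, with 147 to 765 counts, whereas the female transcript Xist had 0 to 48 counts. Per exon length, Kdm6b was also set against the sum of Kdm6a, Kdm6b and Uty. At rest Kdm6b made up 72.3%, 66.4% and 71.4% of this sum in wt, Eμ-deficient and 3′RR-deficient B-cells. After LPS it made up 14.7%, 18.8% and 31.5%. The GC trend was not removed from these shares.

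All 7 myeloid markers, all 7 erythroid markers and 6 of 7 T-cell markers also fell with LPS. The myeloid markers summed to 151 to 365 CPM at rest and to 21.4 to 35.3 CPM after LPS. Fewer cells of a type and less RNA per cell cannot be told apart in these bulk samples, and the part of other cells in the falls of Kdm6b, Ezh1 and Cbx7 was not tested.

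**Figure D3:**
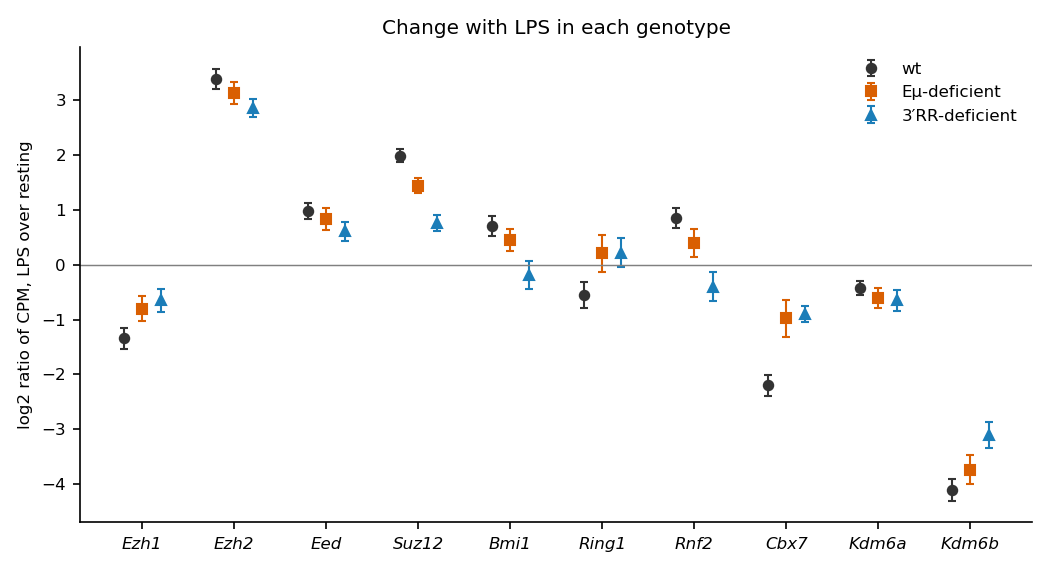
Log2 ratio of CPM, LPS over resting, for the 10 genes in each genotype, with 95% intervals of counting error. Ezh2, Eed and Suz12 were above 0 and Ezh1, Cbx7, Kdm6a and Kdm6b below 0 in all 3 genotypes, while the points of Bmi1, Ring1 and Rnf2 lay on both sides.

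The comparisons between genotypes asked whether loss of an IgH enhancer was accompanied by a different level of these genes, which lie outside the IgH locus. In the additive model over all 6 libraries, no member passed the test between 3′RR-deficient and wt B-cells (0 of 10, against 0.678% of all genes) or between Eμ-deficient and wt B-cells (0 of 10, against 1.16%). DESeq2 also called no member in either comparison, and Cbx7 had the largest difference of the 10 in both. For Cbx7 the log2 difference was 1.2 ± 0.36 for 3′RR-deficient minus wt (edgeR adjusted p = 0.413) and -1.09 ± 0.37 for Eμ-deficient minus wt (adjusted p = 0.302). These comparisons share the wt libraries. For the other 9 members the adjusted p was at least 0.914 and 0.986. As a median, the 10 genes differed from wt by 0.10 on the log2 scale in 3′RR-deficient and by -0.08 in Eμ-deficient B-cells, beside 0.04 and -0.01 over all genes. With 2 residual degrees of freedom, these p-values do not show that the levels were alike.

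Within a state, Cbx7 was also the only member that differed over 2-fold from wt. In the resting libraries the log2 ratio of Eμ-deficient over wt was -1.64 (-1.84 to -1.44), and Cbx7 was 1 of 10 members past 2-fold where 18.3% of all genes were. After LPS the same ratio was -0.42 (-0.76 to -0.10), with 0 of 10 members past 2-fold against 12.5% of all genes. The gap between the Eμ-deficient and wt libraries was therefore smaller after LPS, also with the GC trend removed (-1.26 at rest and -0.63 after LPS). The 3′RR-deficient over wt ratio was 0.60 at rest (0.49 to 0.71), where 0 of 10 members and 9.33% of all genes were past 2-fold. After LPS it was 1.90 (1.68 to 2.12), and 1.29 with the GC trend removed, where 1 of 10 members and 26.6% of all genes were past 2-fold. The 3′RR-deficient excess over wt was thus the larger after LPS, and the Eμ-deficient deficit the larger at rest.

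The direct comparison of 3′RR-deficient with Eμ-deficient B-cells was added after the values of Cbx7 were seen. Cbx7 was 4.89-fold higher in 3′RR-deficient cells (log2 2.29 ± 0.37 SE, edgeR adjusted p = 0.0229), where 1.30% of all genes were called in either direction and no other member was. The ratio was alike in both states, 2.24 at rest (2.05 to 2.43) and 2.32 after LPS (2.01 to 2.64). The p-value measures this evenness across states and not the spread between mice. Cbx7 kept its call under all 7 alternatives, with a log2 difference between 1.93 with the GC trend removed and 2.76 with scaling to the added control RNAs. In the resting Eμ-deficient library, where Cbx7 was lower, the erythroid, myeloid and plasma cell markers were higher as sums. These markers summed to 20140, 365 and 2234 CPM, against 3864, 152 and 592 CPM in the resting 3′RR-deficient library. The myeloid markers S100a8 and S100a9 went the other way, at 2.42 and 1.67 against 7.53 and 5.93 CPM. Jchain alone gave 1734 CPM of the plasma cell sum against 171 CPM, while Irf4 was alike at 366 and 364 CPM. After LPS the same sums in CPM were 670, 35.3 and 1589 for Eμ-deficient cells, and 133, 28.2 and 891 for 3′RR-deficient cells. The summed B-cell markers were lower in Eμ-deficient cells, at 1546 against 2401 CPM at rest and 1392 against 1631 CPM after LPS. Ms4a1 went the other way after LPS, at 420 CPM in Eμ-deficient against 260 CPM in 3′RR-deficient cells. In the same comparison 5 of 7 erythroid and 1 of 6 plasma cell markers were called lower in 3′RR-deficient cells. No myeloid or B-cell marker was called in either direction. The part of other cells in the Cbx7 difference was not tested.

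Cbx6, another CBX gene of PRC1 chosen after its values were seen, had the same order of genotypes as Cbx7, with 7.32, 4.99 and 13.5 CPM at rest and 15.7, 3.65 and 27.1 CPM after LPS in wt, Eμ-deficient and 3′RR-deficient B-cells. It was not called against wt (edgeR adjusted p = 0.914 in 3′RR-deficient and 0.307 in Eμ-deficient B-cells) or between the deficient genotypes (log2 2.08, adjusted p = 0.0576). With the GC trend removed, the log2 ratio of Eμ-deficient over wt for Cbx6 was -0.24 at rest and -2.29 after LPS. That of 3′RR-deficient over wt was 0.94 and 0.26. Cbx2 had the same order at 15 to 72 counts, with 1.265, 1.135 and 1.41 CPM at rest and 3.44, 2.72 and 4.94 CPM after LPS. It was not called. With the GC trend removed, its ratios were 0.26 and -0.56 for Eμ-deficient, and 0.23 and -0.13 for 3′RR-deficient cells. Cbx8 did not share this order. It was at 3.63, 4.01 and 6.08 CPM at rest and at 2.58, 3.47 and 3.71 CPM after LPS, and was not called either.

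Further genes of these complexes, and some related to them, were followed in lists. Each list is given with its count of genes called with LPS. These counts are to be read against the 19.7% of all genes called higher and 21.1% called lower. Of 10 accessory genes of PRC2, 4 rose and 3 fell, with a median log2 change of 0.45. Rbbp7, a histone binding subunit, rose from 65.4 to 220 CPM (log2 1.73 ± 0.26, edgeR adjusted p = 0.00107). Epop, an elongin-binding PRC2 partner, rose from 3.19 to 11.4 CPM (1.83 ± 0.28, adjusted p = 0.00112). Of the genes that guide PRC2 to DNA, Phf1 fell from 48.4 to 9.76 CPM (-2.30 ± 0.24, adjusted p = 0.000202) and Jarid2 from 101 to 47.0 CPM (-1.10 ± 0.22, adjusted p = 0.00431). Members of this list were thus called in both directions.

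Of 12 further genes listed with canonical PRC1, 3 rose and 4 fell, with a median of -0.43. The list takes in Sfmbt1, Sfmbt2 and L3mbtl3, related genes that are not core PRC1 subunits. Pcgf2, a relative of Bmi1, was nearly absent at rest, with 0, 2 and 9 counts in wt, Eμ-deficient and 3′RR-deficient B-cells, and gave 76, 18 and 20 counts after LPS (edgeR adjusted p = 0.00618). Sfmbt2 also rose (log2 2.62 ± 0.41, adjusted p = 0.0013). The polyhomeotic gene Phc1 fell (-1.61 ± 0.28, adjusted p = 0.00209), as did Scml4 (-1.84 ± 0.31, adjusted p = 0.00181). Bmi1 remained the most abundant of the PCGF genes per exon length in all 6 libraries, at 34.9% to 52.1% of their sum.

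Of 12 tested genes of variant PRC1, which acts without a CBX protein, 3 rose and 1 fell (median 0.16). The risers by size were E2f6 (log2 1.35, edgeR adjusted p = 0.00582) and Pcgf5 (1.34, adjusted p = 0.00479), and the faller was Rybp, which takes the place of CBX proteins (-0.77, adjusted p = 0.0369). Of 9 tested genes that remove or help to remove ubiquitin from H2A, only Foxk2 was called (1.27, adjusted p = 0.00222), and the median was -0.19. Of 10 tested partners of KDM6A, 4 rose and 2 fell (median 0.07). Dpy30 (1.70, adjusted p = 0.000877) and Paxip1 (1.02, adjusted p = 0.0098) rose, and the methyltransferase gene Kmt2c (-1.32, adjusted p = 0.00327) and the acetyltransferase gene Crebbp (-0.88, adjusted p = 0.0254) fell. No gene of these lists of further PRC2, PRC1, deubiquitinase and KDM6A partner genes was called in any of the 3 genotype comparisons. Few genes were called at all: 0.678% between 3′RR-deficient and wt, 1.16% between Eμ-deficient and wt, and 1.30% between the deficient genotypes.

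Of 10 genes known as polycomb targets, 5 were tested, and Cdkn1c, Hoxa9, Hoxa10, Gata4 and Pax6 were below the filter. Among the tested, 2 rose with LPS and none fell. Prdm1, the master regulator of plasma cells, rose from 11.9 to 86.9 CPM (log2 3.04 ± 0.34, edgeR adjusted p = 0.000255). Cdkn2a, which encodes inhibitors of the cell cycle, had 3, 0 and 2 counts at rest and 38, 10 and 18 counts after LPS in wt, Eμ-deficient and 3′RR-deficient B-cells (adjusted p = 0.002). Cdkn2b gave 1.75 (adjusted p = 0.0709), Cdkn1a 0.62 (adjusted p = 0.281) and Irf4 -0.13 (adjusted p = 0.71), and none of them passed the test. The 14 proliferation genes all rose, with a median of 2.98, close to the 3.11 of Ezh2.

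Among the 9037 genes with a mean of at least 100 counts, the 5 whose level across the 6 libraries was most like that of Ezh2 were Rmi2, Stil, Sqle, Cenpe and Melk, at a distance of 0.32 to 0.36 between centred log2 CPM profiles. Stil, Cenpe and Melk are genes of mitosis, Rmi2 acts in the repair of replication intermediates, and Sqle makes sterols. Most like Ezh1 were Atp6v0b, Lasp1, Adcy7, Camta2 and Anks3, at 0.08 to 0.21. These distances rest on 6 libraries and follow the change with LPS for the most part.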

How the data were processed

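Total RNA of 6 pools of CD43- splenic B-cells (2 mice each per the labels) was sequenced from stranded, rRNA-depleted libraries with added control RNAs. The deposited values are raw read counts per gene name. Per the labels and the methods, the authors aligned reads to mm10 with STAR 2.4.0a and counted them with featureCounts (Subread 1.4.6-p1) on the sense strand, with reads that map to several places included, so genes with near-identical copies are less certain. Non-coding genes opposite coding exons held a median of 1.62% of the coding gene's counts per base (59 pairs), and the 6 members with an opposite-strand neighbour shared at most 6.82% of their exon bases with it. The labels give the LPS dose as 5 µg/ml, and elsewhere in mg/ml.

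The 92 control RNAs entered neither library sizes nor tests, and took 4.75% to 7.10% of the counts. The main test was edgeR 4.0.16 (quasi-likelihood, R 4.3.3) with terms for genotype and state over all 6 libraries, TMM scaling, on genes that reached 10 counts in 2 or more libraries. Each genotype gave 1 library to each state, so genotype served as the block. The model has 2 residual degrees of freedom, which measure departure from additivity and not the spread between mice. Within a state or genotype, the log2 ratio of 2 libraries was given with an exact conditional binomial 95% interval, which covers counting error only. Exon lengths and GC content came from GENCODE M21 (GRCm38), which matched 44131 of 47055 names, and 790 more through older symbols. GC values were known for 98.4% of tested genes. Counts were also simulated for the LPS comparison over 14600 genes, of which 200 were changed by 2 on the log2 scale. Of these 200 genes 89.5% were called, and 3.24% of calls were unchanged genes. The simulated counts held no genotype difference and no GC trend, so these shares need not hold for the real libraries.

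The members, lists and tests were chosen with earlier results of these data known. All 10 members were named. From each list, the text names up to 2 of the largest rises and 2 of the largest falls with LPS among genes that were called and whose direction was shared by all 3 genotypes, every tested polycomb target, and the 5 genes most like Ezh1 and most like Ezh2. Marker genes of other cell types are given as sums. Some genes of the lists are not reported here. Alternatives were total count scaling, TMM without immunoglobulin genes, DESeq2 1.42.0, no count filter, removal of the GC trend, omission of each genotype, the model without genotype, fits to the compared genotypes alone and, added after the data were seen, scaling to the control RNA total and the comparison of 3′RR-deficient with Eμ-deficient B-cells.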

Additional observations from a re-analysis of the deposited data

Results flagged for a closer look

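Several members had ratios that pointed one way in one state or genotype and the opposite way in another. These differences were not tested, since each ratio rests on 1 library a side. For the ratio of 3′RR-deficient over wt, Ezh2 gave 0.43 at rest and -0.11 after LPS on the log2 scale, and Suz12 gave 0.26 and -0.96. Rnf2 gave 0.33 and -0.92 in the same comparison, whereas Ring1 went from -0.23 to 0.54 and Kdm6b from -0.21 to 0.79. For the ratio of Eμ-deficient over wt, Suz12 gave 0.23 at rest and -0.31 after LPS. The log2 change of Rnf2 with LPS was 0.85 in wt, 0.39 in Eμ-deficient and -0.40 in 3′RR-deficient B-cells.

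With the GC trend of each library removed, the ratios of 3′RR-deficient over wt after LPS became 0.24 for Ezh2, -0.34 for Suz12, -0.11 for Rnf2, -0.08 for Ring1 and 0.07 for Kdm6b. The change of Rnf2 with LPS in 3′RR-deficient B-cells became 0.05, and the ratio of Eμ-deficient over wt for Suz12 became -0.08 at rest and -0.18 after LPS. Opposite signs were left for Suz12, Rnf2 and Kdm6b between 3′RR-deficient and wt B-cells. The part of library composition in each of these was not tested.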

How the results depend on the processing

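The LPS effect was called for 6 members and for 4 to 7 under the alternatives. It held in all of them for Ezh2, Suz12 and Kdm6b. Genes called higher after LPS went from 2883 to 1454 with control RNA scaling, which moved the median of all genes from -0.07 to -0.28, and ranged from 2115 to 3426 with a genotype left out. Genes called lower went from 3079 to between 1845 (without the Eμ-deficient libraries) and 3229 with a genotype left out, and to 3637 with the GC trend removed, the highest of the alternatives. Without the Eμ-deficient libraries Ezh1 (adjusted p = 0.1) and Eed (0.113) were lost, and control RNA scaling lost Eed (0.321). Without the replicate block given by genotype there were 6 calls: Cbx7 was lost (0.202) and Kdm6a gained (0.0384), as Kdm6a was under total count (0.0468), without the GC trend (0.0134) and without wt (0.0177). The shift of the Ezh1 to Ezh2 balance stayed between -4.32 and -3.71. No paired analysis was possible for the genotypes because the labels number no replicates. With no count filter Cbx7 was called against wt in 3′RR-deficient (0.0483) and in Eμ-deficient B-cells (0.0329), 1 member each. Genes called between 3′RR-deficient and wt numbered 99, against 170 with control RNA scaling, 339 with no filter, 177 with only these genotypes fitted and 178 with DESeq2. Between Eμ-deficient and wt they numbered 170, against 605, 393 and 340 with the last 3 settings, and between 3′RR-deficient and Eμ-deficient 190, against 777, 1779 and 366.

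Reversed signs occurred for uncalled values only. For LPS these were Ring1 without the GC trend (0.096) and without wt (0.237), its range with a genotype left out being -0.194 to 0.237. For 3′RR-deficient against wt they were Eed under total count (-0.015) and, without the GC trend, Ring1 (-0.12), Rnf2 (0.056), Kdm6a (0.017) and Kdm6b (-0.031). For Eμ-deficient against wt they were Kdm6b under total count (-0.08) and with no filter (-0.044), and with control RNA scaling Ezh1 (-0.252), Ezh2 (-0.127) and Kdm6b (-0.389). For 3′RR-deficient against Eμ-deficient, control RNA scaling gave Ezh2 0.432, Suz12 0.176, Rnf2 0.387 and Kdm6a 0.367, and removal of the GC trend gave Ezh2 0.177, Suz12 0.047, Rnf2 0.366, Kdm6a 0.199 and Kdm6b -0.208. Why these signs reversed was not tested. The smallest member count was 107 (Cbx7, Eμ-deficient, LPS), and the intervals given with the ratios show the precision at this depth.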
